A study of Homo sapiens with 10 samples.

Results

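The complement system was followed through 9 genes in subcutaneous xenografts. The tumours were grown from A375 cells, a long-established line from a human melanoma. The genes were CD46, CD55 and CD59, which encode regulators on the cell surface, CFI and SERPING1, which encode soluble regulators, and C3, CFB, C1R and C1S, which encode components of the cascade. They are 9 of 17492 genes on the arrays, each with 1 probe set, and were selected on results of the same comparison of doxycycline-treated with vehicle-treated tumours, together with their shared pathway. Their differences between the groups are therefore a description and carry no test. Per the labels, BALB/c nude mice, which lack a thymus and so most T cells, carried the tumours. Once a tumour reached 100 mm3 the drinking water carried doxycycline or vehicle, and tumours were excised 7 days into treatment. Doxycycline induced Omomyc, a dominant negative derived from MYC, in the tumour cells, and the labels name 5 tumours per group as biological replicas with 1 array each. The sources used here do not give the construct's promoter, the number of clones in the engineered line or the age of the mice. With no doxycycline-treated tumours lacking Omomyc, the effects of the drug and of the transgene cannot be told apart. The excised tissue also holds mouse RNA from the host.

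Complement is a cascade of plasma proteases that marks surfaces with fragments of C3 and can end in a pore, the membrane attack complex. The classical pathway starts when C1q binds a surface and activates the proteases C1r and C1s, and the alternative pathway amplifies deposited C3b with factor B. Human cells shield themselves with CD55, which takes the C3 and C5 convertases apart, with CD46, which serves factor I as a cofactor in cutting C3b and C4b, and with CD59, which blocks assembly of the pore. CD55 and CD59 are held in the membrane by a glycosylphosphatidylinositol (GPI) anchor, and CD46 by a transmembrane segment. SERPING1 encodes the C1 inhibitor, which inactivates C1r and C1s.

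Values are log2 expression per probe set, normalised across the arrays by the authors with RMA, and a difference is the doxycycline mean minus the vehicle mean on that scale. The arrays had medians of 5.45 to 5.56 and lowest values of 0.77 to 1.05. Correlations over all genes were 0.979 to 0.987 within the vehicle group and 0.965 to 0.985 within the doxycycline group, where array 5 had the lowest mean correlation with its group, 0.967. Of the melanoma markers, SOX10 was at 7.40 ± 0.15 and VIM at 11.89 ± 0.10 in vehicle tumours (SD, n = 5), while the pigment cell genes MLANA, PMEL and TYR, at 3.12, 3.23 and 3.00, lay below the median of every array. A gene is called where its Benjamini-Hochberg adjusted p from limma's fit across all genes is under 0.05. Of 12 melanoma markers 1 was called higher and 0 lower, 8.33% against 11.0% of all genes, and 2 were higher and 1 lower at an unadjusted p under 0.05. The called marker was NGFR, a neural crest receptor, which rose by 1.01 (limma, adjusted p = 0.00349), from 5.88 ± 0.29 to 6.89 ± 0.30 (SD, n = 5 each). AXL, a receptor kinase named after its value was seen, differed by 1.01 with overlapping groups (limma, adjusted p = 0.0879).

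The promoters of the 3 surface regulators are shown because these genes were the ones in which every doxycycline array lay above every vehicle array. The sequences are RefSeq's for GRCh38.p14, the 250 bases upstream of the most upstream annotated start, printed 5′ to 3′ on the strand of the gene. That of CD55 lies at chr1:207321428-207321677 on the plus strand, that of CD46 at chr1:207751788-207752037 on the plus strand and that of CD59 at chr11:33736480-33736729 on the minus strand. Capitals mark matches, on either strand, to the GC box GGGCGG, the CCAAT box CCAAT or the gamma-activated site TTCNNNGAA, known from promoters that respond to interferon.
CD55: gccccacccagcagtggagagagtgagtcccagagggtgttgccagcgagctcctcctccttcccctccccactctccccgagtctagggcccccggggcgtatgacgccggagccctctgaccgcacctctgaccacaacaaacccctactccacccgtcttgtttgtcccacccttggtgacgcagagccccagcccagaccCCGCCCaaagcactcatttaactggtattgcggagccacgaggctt
CD46: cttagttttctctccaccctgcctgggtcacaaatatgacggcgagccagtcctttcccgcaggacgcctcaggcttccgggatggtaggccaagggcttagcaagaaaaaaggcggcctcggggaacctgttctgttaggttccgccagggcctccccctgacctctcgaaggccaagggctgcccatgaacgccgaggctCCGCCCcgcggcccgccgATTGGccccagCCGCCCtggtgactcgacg
CD59: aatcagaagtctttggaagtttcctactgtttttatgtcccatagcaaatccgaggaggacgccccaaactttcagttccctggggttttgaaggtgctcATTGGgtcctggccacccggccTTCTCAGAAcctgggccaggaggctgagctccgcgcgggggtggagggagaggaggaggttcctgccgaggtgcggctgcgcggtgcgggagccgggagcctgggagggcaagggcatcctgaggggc

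Counting back from the start, CD55 had a GC box at -46 to -41, CD46 had GC boxes at -48 to -43 and -19 to -14 with a CCAAT box between them, and this CD59 window held a CCAAT box and 1 gamma-activated site. GC boxes occur in 42.6% of all 35116 promoter windows of this length, CCAAT boxes in 32% and gamma-activated sites in 6.57%. Of the 9 genes 6 had windows in the promoter table, 11 windows in all, since a gene can have several starts, and windows of 1 gene can overlap. C3, C1S and SERPING1 have no entry in that table. Among the 11, 4 held a GC box, 6 a CCAAT box and 4 a gamma-activated site, and of those last 4 windows 2 are of CD59 and share 1 site. These 2 CD59 windows also share a CCAAT box, and the 2 CD46 windows share GC boxes and a CCAAT box. The E-box CACGTG, the motif bound by MYC with MAX and found in 6.34% of all windows, was in 0 of the 11, as were the NF-kB motif (5.67% of all windows) and the cAMP response element TGACGTCA (1.65%). The AP-1 motif TGANTCA, in 6.57% of all windows, stood in 1 window of a downstream CD59 start. These motifs do not overlap one another in the 3 sequences above.

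Elements of interferon-responsive promoters are shown for CFB and C1R, complement genes known to respond to interferon. Each is printed with 10 bases on either side and its motif in capitals. The CFB elements lie at chr6:31945993-31946021 and chr6:31945945-31945974 on the plus strand, and the C1R element at chr12:7091961-7091989 on the minus strand, before the second of its annotated starts. The second CFB element matches the interferon-stimulated response element core on its opposite strand, a core found in 3.02% of all windows. CFB also had the TATA box TATAAA (10.7% of all windows). A match describes the sequence and does not show a bound site.
CFB gamma-activated site: cgcttggatgTTCCGGGAAagtgatgtgg
CFB response element: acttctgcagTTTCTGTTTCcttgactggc
C1R gamma-activated site: gccagtcctaTTCCTGGAAggggagggga

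The surface regulators were higher in all doxycycline-treated tumours, with the widest difference in CD55. CD55 read 9.56, 9.52, 9.53, 9.54 and 9.67 in vehicle arrays 1 to 5 and 11.07, 11.31, 11.09, 11.03 and 11.03 in doxycycline arrays 1 to 5. The lowest doxycycline value lay 1.36 above the highest vehicle value, a gap wider than the spread of either group. The means were 9.56 ± 0.06 and 11.11 ± 0.12 (SD, n = 5 each), a log2 difference of 1.54 or 2.91-fold.

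CD59, the inhibitor of the membrane attack complex, read 9.61, 9.57, 9.51, 9.59 and 9.49 in the vehicle arrays and 10.44, 10.46, 10.56, 10.41 and 10.49 in the doxycycline arrays. The groups were again apart, by 0.79 between their nearest values, against ranges of 0.126 within vehicle and 0.155 within doxycycline. The means of 9.55 ± 0.05 and 10.47 ± 0.06 (SD, n = 5 each) differed by 0.92, or 1.89-fold.

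CD46, the cofactor of factor I, showed a small difference. Its values were 8.85, 8.85, 8.81, 8.93 and 8.96 in vehicle and 9.14, 9.05, 9.32, 9.04 and 8.98 in doxycycline tumours. The groups did not overlap, but doxycycline array 5 lay 0.0192 above vehicle array 5, and the means of 8.88 ± 0.06 and 9.11 ± 0.13 (SD, n = 5 each) differed by 0.23, or 1.17-fold. Leaving out any 1 array kept the difference of CD46 between 0.17 and 0.26, that of CD55 between 1.49 and 1.57 and that of CD59 between 0.89 and 0.93.

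**Figure D1:**
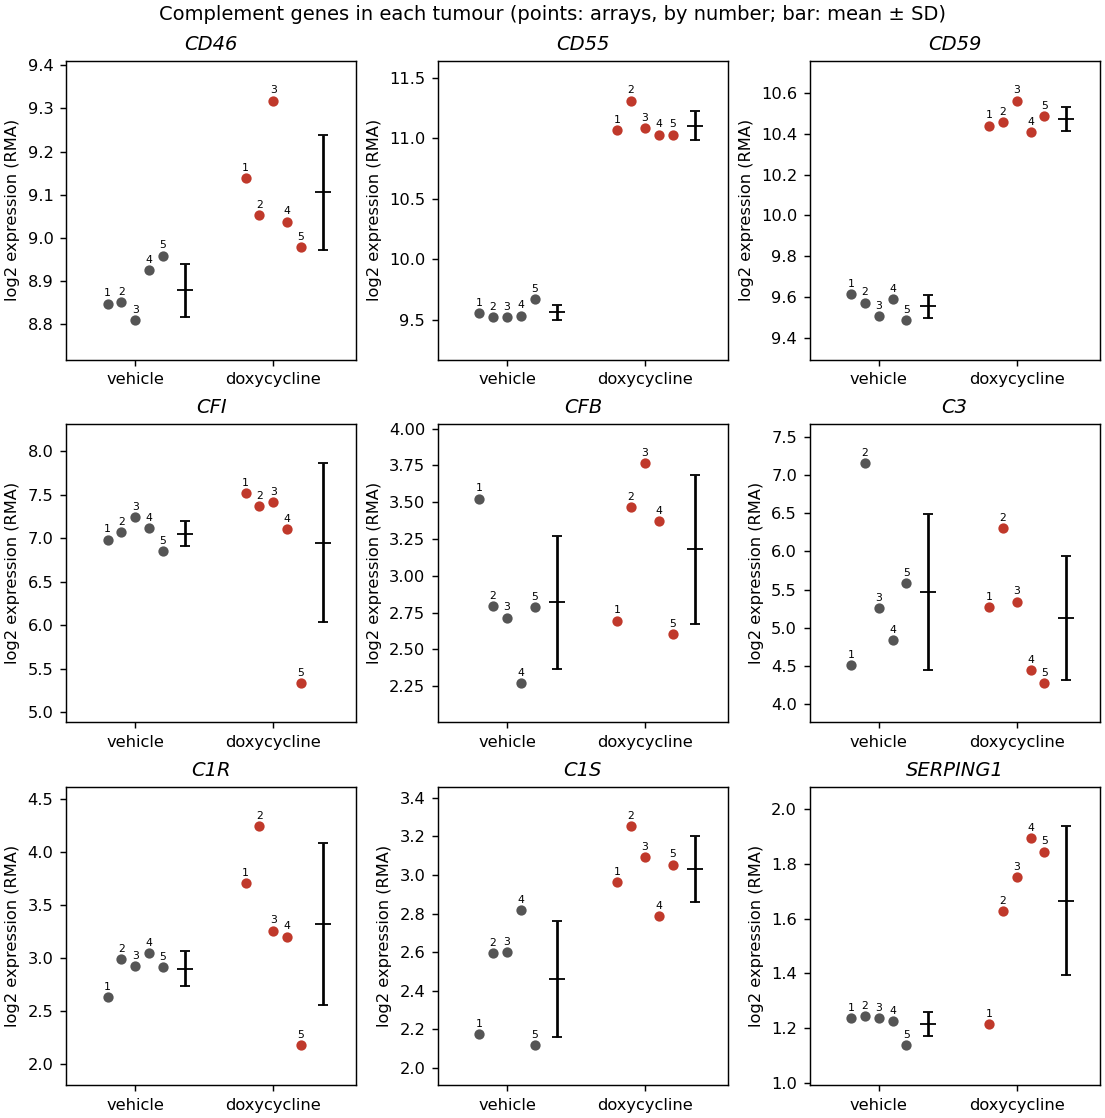
Log2 expression (vertical axis, a separate scale in each panel) of the 9 complement genes in 5 vehicle (grey) and 5 doxycycline (red) tumours; points are arrays with their replicate number, and bars are the mean ± SD. CD55, CD59 and CD46 have all doxycycline points above all vehicle points, and doxycycline array 5 stands far below the rest for CFI, at 5.34.

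Over all 17492 genes, all doxycycline values lay above all vehicle values in 5.38%, against 3 of these 9 genes. Of the 9 genes 3, CD55, CD59 and C1S, passed the threshold of the fit across all genes (limma, Benjamini-Hochberg, 0.05), and all were higher. CD55 and CD59 passed under all 20 alternatives run, and C1S in 5 of them. C1S was removed as dim in 1, and missed the threshold with the replicate number as a block, with trended moderation, after a second quantile normalization, with a stroma score (the mean of macrophage, fibroblast and endothelial markers) as a covariate and in an unmoderated test with unequal variances. It also missed it without doxycycline arrays 4 and 5, and on leaving out any 1 array other than vehicle array 4 or doxycycline array 4. SERPING1 passed without doxycycline array 1, and C1R without doxycycline arrays 4 and 5. The fit called 5.03% of all genes higher, and since the 9 were chosen on this contrast nothing is read from either count. The alternatives refit the same arrays or a part of them, so passing or missing under them is no test of the 9 genes. The means were higher in doxycycline tumours for 7 of the 9 and lower for CFI and C3.

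The soluble regulators had less uniform values. CFI, the protease that cuts C3b and C4b, read 6.99, 7.07, 7.24, 7.12 and 6.85 in vehicle tumours. In doxycycline tumours it read 7.52, 7.37, 7.42, 7.11 and 5.34, so that 3 arrays lay above all vehicle arrays and array 5 lay far below all others. The means of 7.05 ± 0.14 and 6.95 ± 0.91 (SD, n = 5 each) differed by -0.10, and array 5 decided this sign: without it CFI was higher by 0.30. The difference of CFI was 0.38 without doxycycline arrays 4 and 5, 0.15 with a stroma score as a covariate, and also positive with array weights.

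SERPING1 read 1.24, 1.24, 1.24, 1.23 and 1.14 in vehicle tumours, close to the lowest value of each array, and 1.21, 1.63, 1.75, 1.89 and 1.84 in doxycycline tumours. Doxycycline arrays 2 to 5 lay above all vehicle arrays and array 1 lay among them. The means of 1.22 ± 0.04 and 1.67 ± 0.27 (SD, n = 5 each) differed by 0.45. At values this near the bottom of the scale, the array gives little information on the amount of C1 inhibitor RNA.

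The proteases of the C1 complex were dim as well. C1R, which activates C1s, read 2.63, 2.99, 2.92, 3.05 and 2.92 in vehicle and 3.71, 4.24, 3.26, 3.20 and 2.18 in doxycycline tumours. The first 4 doxycycline arrays lay above all vehicle arrays, and array 5 lay below them all. The means of 2.90 ± 0.16 and 3.32 ± 0.76 (SD, n = 5 each) differed by 0.42, which was 0.70 without doxycycline array 5, 0.18 without doxycycline array 2 and 0.84 without doxycycline arrays 4 and 5.

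C1S, the protease that cuts C4 and C2, read 2.18, 2.60, 2.60, 2.82 and 2.12 in vehicle and 2.96, 3.25, 3.09, 2.79 and 3.05 in doxycycline tumours. Only doxycycline array 4 fell within the vehicle range, just below vehicle array 4. The means of 2.46 ± 0.30 and 3.03 ± 0.17 (SD, n = 5 each) differed by 0.57, or 1.48-fold. With 1 array left out the difference of C1S ran from 0.48 to 0.66.

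C3, the protein on which all pathways converge, varied the most of the 9 genes among the vehicle tumours. It read 4.51, 7.16, 5.26, 4.84 and 5.59 there and 5.27, 6.31, 5.34, 4.44 and 4.28 in doxycycline tumours. Array 2 was the highest in each group and the groups overlapped over most of their range. The means of 5.47 ± 1.03 and 5.13 ± 0.82 (SD, n = 5 each) differed by -0.34, less than either SD. The sign turned without vehicle array 2, to 0.08, without doxycycline arrays 4 and 5, to 0.17, and with array weights, and without doxycycline array 2 the difference was -0.64.

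CFB, which encodes the protease precursor of the alternative pathway convertase, read 3.52, 2.80, 2.72, 2.27 and 2.79 in vehicle and 2.70, 3.47, 3.76, 3.37 and 2.60 in doxycycline tumours. Doxycycline array 3 alone lay above all vehicle arrays. The means of 2.82 ± 0.45 and 3.18 ± 0.51 (SD, n = 5 each) differed by 0.36, less than either SD, and leaving out 1 array gave 0.22 to 0.54.

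**Figure D2:**
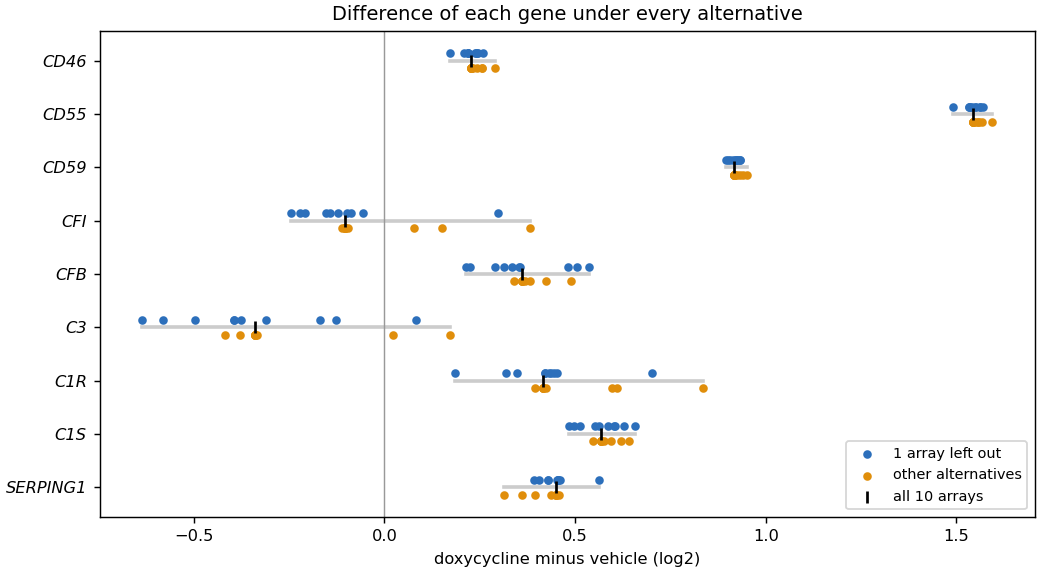
Doxycycline minus vehicle difference on the log2 scale (horizontal axis) of each of the 9 genes with all 10 arrays (black tick), with 1 array left out (blue) and under the other alternatives (orange). The points of CD55 and CD59 stay close together well above 0, while those of CFI and C3 lie on both sides of 0.

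The rest of the pathway was taken from lists made by role, in which 46 of 53 genes were measured. These lists, and those of further roles below, were chosen with earlier results of these data known. C4A, C4B and CLU were among those not analysed here. Of the 46, limma called 0 higher and 2 lower, or 4.35%, against 11.0% of all genes called in either direction and 5.95% called lower, and the median difference was 0.02, as it was over all genes. At an unadjusted p under 0.05 there were 2 higher and 4 lower genes, and the test with unequal variances and no moderation called 0 higher and 1 lower.

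The genes that fell were CPN1 and C1QBP. CPN1, the catalytic subunit of the carboxypeptidase that trims anaphylatoxins, went from 4.05 ± 0.10 with vehicle to 3.61 ± 0.20 with doxycycline (SD, n = 5 each), a fall of 0.45 (95% CI -0.72 to -0.17, limma, adjusted p = 0.039), with 5 of 5 doxycycline arrays below all vehicle arrays. C1QBP, a C1q-binding protein found mainly in mitochondria, went from 9.80 ± 0.10 to 9.38 ± 0.18 (SD, n = 5 each) and fell by 0.42 (95% CI -0.68 to -0.16, limma, adjusted p = 0.0422), again with 5 of 5 arrays below. Both calls were lost when any 1 vehicle array or doxycycline array 2 or 3 was left out, and 1 of the 2 was lost without doxycycline array 1, 4 or 5. Without doxycycline array 3, 1 other complement gene was called higher. Over all alternatives the adjusted p ran from 0.0228 to 0.134 for CPN1 and from 0.00427 to 0.102 for C1QBP.

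By role, none of the 14 classical and lectin pathway genes, 4 further alternative pathway genes or 7 terminal components passed the threshold. At an unadjusted p under 0.05, 1 classical or lectin gene was higher and 1 lower, and 0 genes of the other roles here were. The first list had its smallest p in MASP2, a lectin pathway protease, which differed by -0.39 (limma, adjusted p = 0.0897, 0.0476 without doxycycline array 2). CFHR4, a plasma protein, differed by 0.50 (limma, adjusted p = 0.254). All 7 terminal components had positive differences, from 0.02 to 0.43, with a median of 0.29. That of C8B was 0.27 (limma, adjusted p = 0.266), and their mean levels over all arrays were 1.72 to 3.71, below the median of every array. Of 11 other regulators CPN1 alone passed, and of 10 receptors C1QBP alone. The anaphylatoxin receptor C3AR1, named after its value was seen, differed by 0.59 (limma, adjusted p = 0.189) with its highest value, 6.20, in doxycycline array 4.

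**Figure D3:**
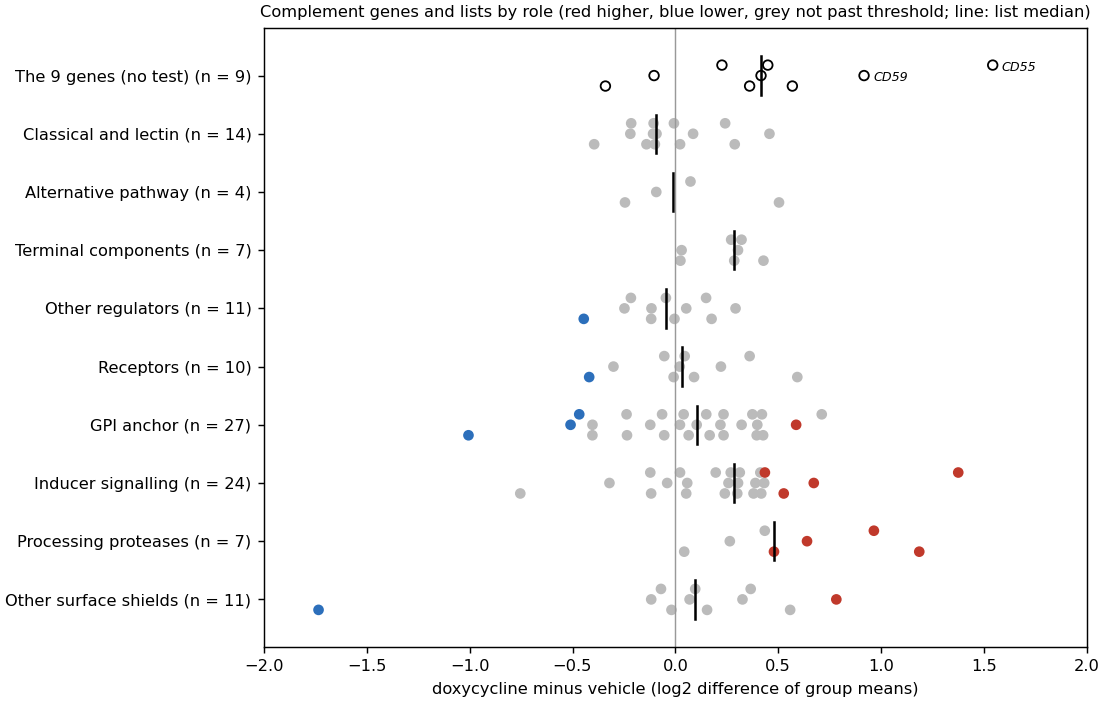
Doxycycline minus vehicle differences on the log2 scale (horizontal axis) of the 9 complement genes (open circles) and of each measured gene in 9 lists by role, with a line at the list median; red genes were called higher, blue lower and grey neither. CD55 and CD59 lie beyond all 46 other complement genes, whose differences run from -0.45 to 0.59. The 9 genes were chosen on this contrast, so nothing is read from that order.

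Genes that make or attach the GPI anchor, which CD55 and CD59 need to reach the membrane, were called in both directions. Of 27 measured genes 1 rose and 3 fell, 14.8% against 11.0% of all genes, with a median of 0.10. PIGP, a subunit of the enzyme for the first step of the anchor, fell by 1.01 (95% CI -1.35 to -0.66, limma, adjusted p = 0.00179), from 8.40 ± 0.10 to 7.39 ± 0.33 (SD, n = 5 each). PIGA, the catalytic subunit of the same enzyme, fell by 0.47 (limma, adjusted p = 0.0336), and PIGL, the deacetylase of the next step, fell by 0.51 (limma, adjusted p = 0.044). PIGT, a subunit of the transamidase that attaches the anchor, rose by 0.59 (limma, adjusted p = 0.0252). PIGP kept its call under every alternative run, while PIGL lost its call in 14 of 20 and PIGA in 10 of 20, both with the stroma score, with the replicate block and without doxycycline arrays 4 and 5. The count of lower genes was 1 on leaving out 1 of vehicle arrays 1, 3 and 4 or of doxycycline arrays 1, 4 and 5. PIGT lost its call on leaving out 1 of vehicle arrays 2, 3 and 5 or doxycycline array 2, and 2 genes were higher without vehicle array 4. PIGQ, PIGY and PGAP2 were not analysed here.

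Signalling genes known to act on complement expression, those of the interferon, interleukin-6 and NF-kB routes, were higher where they passed. Of 24 measured genes 4 rose and 0 fell, 16.7% against 5.03% of all genes called higher, and the median was 0.29. Because this list was chosen with earlier results of these data known, nothing is read from this share. At an unadjusted p under 0.05, 6 were higher and 1 was lower, and the test with unequal variances and no moderation called 0 lower. IRF1, a transcription factor induced by interferon, read 4.81, 5.27, 5.20, 4.54 and 5.52 in vehicle and 6.22, 6.24, 6.43, 6.79 and 6.55 in doxycycline tumours. Its groups did not overlap and it rose by 1.38 (95% CI 0.963 to 1.79, limma, adjusted p = 0.000806). The kinases JAK2 and JAK1 rose by 0.67 (limma, adjusted p = 0.0181) and 0.44 (limma, adjusted p = 0.031), and IL6ST, the shared receptor chain of the interleukin-6 family, rose by 0.53 (limma, adjusted p = 0.0218). IRF1 kept its call under every alternative run, while the count of higher genes was 2 on leaving out vehicle array 3, vehicle array 4 or doxycycline array 2. JAK1 lost its call in 9 of 20 alternatives, among them the stroma score and doxycycline arrays 4 and 5 left out, IL6ST in 4, and JAK2 in 2, the unmoderated test and doxycycline arrays 4 and 5 left out. The receptor chain OSMR, named after its value was seen, differed by -0.75 (limma, adjusted p = 0.0733). It was called lower with the replicate block, with trended and robust moderation, and without doxycycline array 2.

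Of 7 proprotein convertases and related proteases 4 rose and 0 fell, 57.1% against 5.03% of all genes called higher. The list was chosen with earlier results of these data known, so nothing is read from this share. At an unadjusted p under 0.05, 5 were higher and 0 lower, and the test with unequal variances and no moderation also called 0 lower. PCSK7 was the convertase among them, with a rise of 0.48 (limma, adjusted p = 0.0113), while CTSL and CTSB are lysosomal cathepsins and PLAT is a plasminogen activator. CTSL rose by 1.19 (limma, adjusted p = 0.000268), PLAT by 0.97 (limma, adjusted p = 0.00111) and CTSB by 0.64 (limma, adjusted p = 0.0136), which lost its call in the unmoderated test (adjusted p = 0.0611). FURIN, the convertase that processes C3 and factor I precursors, differed by 0.43 (limma, adjusted p = 0.0675) and was named after its value was seen. PCSK6 was not analysed here.

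Other surface proteins that bear on immune attack were called in both directions. Of 11 measured genes 1 rose and 1 fell, 18.2% against 11.0% of all genes, with a median of 0.10. PVR, a ligand of receptors on natural killer and T cells, read 6.77, 6.89, 7.16, 6.78 and 7.35 in vehicle and 5.38, 3.75, 5.32, 4.99 and 6.83 in doxycycline tumours. It fell by 1.74 (95% CI -2.65 to -0.82, limma, adjusted p = 0.0198), with array 5 inside the vehicle range, and lost its call in the unmoderated test (adjusted p = 0.139). ULBP2, a ligand of the activating receptor NKG2D, rose by 0.78 (limma, adjusted p = 0.0378), a call lost on leaving out any 1 vehicle array, doxycycline array 2 or doxycycline array 5, and with the stroma score.

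Markers of other cell types were measured on the same arrays. In bulk tissue a change in the share of cells of a type and a change in RNA per cell cannot be told apart. The tumours were of human cells in mice, so host cells of these types carry mouse RNA, while the probe sets are annotated to human genes. How much of these marker values comes from mouse RNA, and how much from the tumour cells themselves, was not tested. Averaged over 13 markers of macrophages and monocytes, vehicle tumours stood at 4.37 to 4.64 and doxycycline tumours at 4.74 to 5.24, so that the groups did not overlap. Of these markers 2 rose and 0 fell, 15.4% against 11.0% of all genes called in either direction and 5.03% called higher, and at an unadjusted p under 0.05, 4 were higher and 0 lower, with positive differences in 11 of 13. The called genes were LYZ, higher by 1.28 (limma, adjusted p = 0.000384), and CD14, higher by 0.79 (limma, adjusted p = 0.0244). CD14 lost its call in 8 of 20 alternatives, among them the stroma score and vehicle array 1, 3 or 4 or doxycycline array 4 left out. LYZ and CD14 are themselves part of the stroma score, so nothing is read from the fit of either gene with that score. The leukocyte gene PTPRC read 2.30 ± 0.12 and 2.74 ± 0.59, and AIF1 read 1.82 ± 0.27 and 1.88 ± 0.40 in the vehicle and the doxycycline group (SD, n = 5 each), both far below the median of every array. CD68 read 8.96 ± 0.32 and 9.44 ± 0.23 (SD, n = 5 each), a difference of 0.48 (limma, adjusted p = 0.0975). CD74 read 8.10 ± 0.22 and 9.04 ± 0.77 (SD, n = 5 each), a difference of 0.94 (limma, adjusted p = 0.071). Melanoma cells can make both, and which cells the values of these 13 markers come from was not tested.

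Fibroblast and pericyte markers had means of 5.30 to 5.93 in vehicle and 5.11 to 5.60 in doxycycline tumours, with 0 of 10 called, and endothelial markers had means of 4.02 to 4.20 and 3.91 to 4.53, with 0 of 9 called. Of the fibroblast and pericyte markers 7 had negative and 3 positive differences, with a median of -0.51. At an unadjusted p under 0.05, 2 fibroblast markers were higher and 3 lower, and 0 endothelial markers were higher and 1 lower. Doxycycline array 5, which was lowest for CFI, C1R and C3, was the highest for endothelial markers and the lowest of all 10 for SOX10, at 6.49, and CD74, at 7.71. Of 7 hepatocyte markers, the cell type that makes most plasma complement, 0 were called (limma, also 0 at an unadjusted p under 0.05), and their means were 3.83 to 4.13 and 3.65 to 4.14. Lymphocyte, skin, and fat and muscle marker lists overlapped between the groups, with 0 of 9, 0 of 5 and 0 of 6 called (limma), and 1, 1 and 0 genes at an unadjusted p under 0.05. With a score over macrophage, fibroblast and endothelial markers as a covariate, CD55 differed by 1.56, CD59 by 0.94 and CD46 by 0.26. That score itself differed by 0.11 between the groups. The macrophage mean differed by 0.41, the fibroblast mean by -0.26 and the endothelial mean by 0.08. These shifts partly cancel in the score, so the covariate cannot adjust for the macrophage shift by itself. The part of host or tumour-infiltrating cells in the values of the dim genes C1R, C1S, CFB and SERPING1 was not tested.

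**Figure D4:**
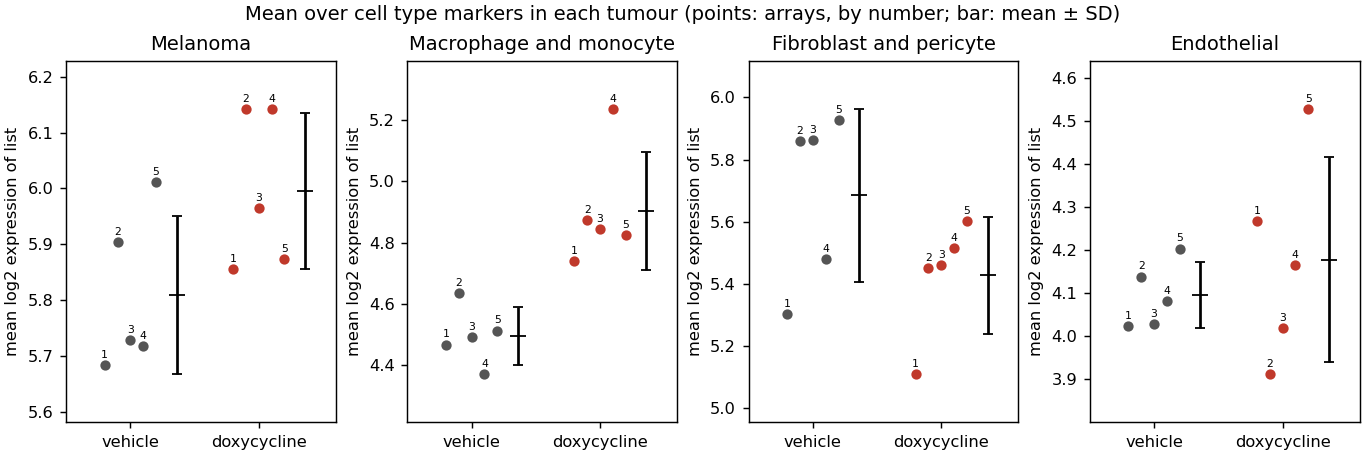
Mean log2 expression over melanoma, macrophage and monocyte, fibroblast and pericyte, and endothelial markers (vertical axes, a separate scale each) in each vehicle (grey) and doxycycline (red) tumour, with replicate numbers and the mean ± SD. The macrophage and monocyte means do not overlap between groups, at most 4.64 in vehicle and at least 4.74 in doxycycline tumours, while the other 3 lists do overlap.

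Likeness of pattern was measured on each array's deviation from its group mean, so that the difference between the groups did not enter, over 10 arrays and against 17491 other genes. The highest values of so large a search are high whatever the gene, and they are given as a description. CD55 was most like INO80D (Pearson r = 0.94, Spearman rho = 0.92), which fell to 0.77 without doxycycline array 2 and vehicle array 5, the arrays farthest from the median. CD59 was most like ZDBF2 (r = 0.94, rho = 0.88, r = 0.89 without doxycycline array 3 and vehicle array 5). CFI was most like CTHRC1, a secreted matrix protein (r = 0.99, rho = 0.89), and ANKH, a pyrophosphate exporter (r = 0.99, rho = 0.92), and without doxycycline arrays 1 and 5 these were 0.95 and 0.94. C3 was most like RNF17 (r = 0.95, rho = 0.90, r = 0.81 without vehicle array 2 and doxycycline array 2). For CD46, CFB, C1R, C1S and SERPING1 the genes were FANCE (r = 0.97), GSTM3 (r = 0.92), TMEM91 (r = 0.94), PNPLA8 (r = 0.95) and ARID3B (r = 0.93). That of C1R rested on doxycycline arrays 2 and 5, without which it was 0.45.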

How the data were processed

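Total RNA of 10 tumours was extracted with TRIzol and biotin-labelled, per the labels' protocols, with 1 Affymetrix array per tumour. The authors deposited log2 expression from RMA, per the submitters' processing notes. The sources used here do not give the RMA version, array model or build, so gene coordinates are not printed and promoter coordinates are those of the sequence table. The table holds 18569 probe sets, 17511 with 1 gene symbol, 0 with several and 1058 with none listed. All 17511 matched RefSeq's gene table by Entrez identifier. The highest-mean probe set was kept for 17 genes with several, leaving 17492.

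The comparison used R 4.3.3 and its package limma 3.58.1 (a two-sided moderated test from lmFit and eBayes, with treatment group alone in the model, 10 arrays, Benjamini-Hochberg over all genes, threshold 0.05), a procedure tested on simulated data. Nothing in the labels says that replicas were separate mice beyond the word biological, so p-values measure the spread between these tumours. The 9 genes, gene lists and alternatives were chosen with earlier results of these data known. Named genes are the 9, up to 4 called genes with the smallest p per list (or the 1 with the smallest p where none was called), up to 2 called markers per marker list, and the genes most alike in pattern, of which 1 or 2 per gene are printed. Genes outside that rule are named as melanoma or other cell type markers, or said to be named after their values were seen. Alternatives covered the model (replicate number blocked, moderation trended and robust, arrays weighted, a stroma score added, or unequal variances with no moderation), the values (median-centred, quantile-normalized again, probe sets averaged, or the dimmest 30% of genes dropped) and the samples (doxycycline arrays 4 and 5 left out together, or any 1 array). The stroma score averages macrophage, fibroblast and endothelial markers. The number of arrays limits the precision.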

Additional observations from a re-analysis of the deposited data

Results flagged for a closer look

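Of 78 groups of 5 values examined (the named genes and the marker list means), 7 held an array set apart from the other 4 by more than 0.71 of the group's range, and chance alone sets about 1 in 20 groups apart. For CD55, vehicle array 5 was at 9.67 against 9.52 to 9.56 in the others, and doxycycline array 2 was at 11.31 against 11.03 to 11.09, small distances beside the 1.36 between the groups. For CFI, doxycycline array 5 was at 5.34 against 7.11 to 7.52. For SERPING1, vehicle array 5 was at 1.14 against 1.23 to 1.24, at the bottom of the scale. Doxycycline array 5 was also lowest for CTSB, at 10.72 against 11.24 to 11.40, and for LYZ, at 6.57 against 7.22 to 7.40. The macrophage and monocyte mean of doxycycline array 4 was 5.24 against 4.74 to 4.87.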

How the results depend on the processing

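Each of 20 alternatives was tried. The signs of 7 of the 9 complement genes held wherever the gene had a value (20 alternatives, or 19 for genes removed as dim), and CFI and C3 turned as given above. The replicate numbers were not taken as pairs, since 1 of 5 same-numbered pairs had deviations correlated above 0.1. With the replicate block, other complement genes called lower were 0, anchor genes lower 1, and inducer signalling genes 2 higher and 1 lower. With trended and robust moderation these counts were 1 (complement, lower), 2 (anchor, higher) and 1 (signalling, lower), with 2 other surface genes higher. Complement genes called lower were 1 with median centring, second quantile normalization, the dimmest genes removed, the unmoderated test or doxycycline arrays 4 and 5 left out, and 0 with the stroma score. With the dimmest genes removed, 2 anchor and 2 surface genes were higher. With the stroma score 1 anchor gene was lower and 0 surface genes were higher. The unmoderated test called 578 of all genes higher and 0 surface genes in either direction, and without doxycycline arrays 4 and 5, 0 surface genes were higher. With 1 array left out, counts ran from 595 to 908 (all genes, higher) and 768 to 1012 (lower), 0 to 1 and 0 to 1 (complement, higher and lower), 0 to 2 and 1 to 3 (anchor), 2 to 5 and 0 to 1 (signalling), and 0 to 1 (surface, higher). Among named list genes 0 of 437 values changed sign, 89 lost a call and 1 gained one. Removing the dimmest genes left no value for CFB, C1R, C1S, SERPING1, MASP2, C8B and CPN1. The causes were not tested. Values near the bottom of the scale, as for SERPING1, limit what can be read from them.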
